A study of Canis lupus familiaris with 34 samples.

Results

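The platelet-derived growth factor (PDGF) ligands and receptors were 7 genes taken by name from the 22035 gene symbols in the feature counts. They were the 4 ligand genes PDGFA, PDGFB, PDGFC and PDGFD, the receptor genes PDGFRA and PDGFRB, and the receptor-like gene PDGFRL. No measured value of these genes was used to choose them, but earlier results of these data were known when they were chosen.

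PDGF ligands are secreted dimers that bring receptor chains together at the cell surface, where the receptors, which are tyrosine kinases, phosphorylate each other and start signalling through the RAS, PI3-kinase and phospholipase C gamma pathways. PDGFA and PDGFB are cut by furin-type proteases inside the cell, whereas PDGFC and PDGFD are secreted in a latent form that proteases outside the cell must open. PDGFRA is a marker of fibroblasts and other mesenchymal cells, and PDGFRB is best known from pericytes, vascular smooth muscle cells and fibroblasts. In the heart valves the pathway takes part in the development of the cushions from which the leaflets form, and the main mesenchymal cell of the adult leaflet is the valve interstitial cell.

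RNA was sequenced from the mitral valve of 34 Cavalier King Charles Spaniels, each a separate privately owned dog of about 10 years examined at elective euthanasia. The 10y-noCHF group held 19 dogs (10 females and 9 males) without congestive heart failure (CHF), most of them with earlier stages of myxomatous mitral valve disease (MMVD). The 10y-MMVD-CHF group held 15 dogs (6 females and 9 males) whose MMVD had progressed to CHF. There was thus no group free of valve disease, and what follows compares valves with and without CHF in 1 breed.

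The total count per dog was between 46185256 and 82361245. Markers of valve interstitial cells and fibroblasts were high in every dog, with a mean over 12 markers between 10.3 and 11.5 on the log2 scale of CPM plus 1, where CPM are the counts of a gene scaled to the same library size in every dog, and POSTN, which encodes the matrix protein periostin, averaged 6507 ± 1593 CPM (SD, n = 19) without CHF and 7015 ± 2253 CPM (SD, n = 15) with it. POSTN was 1 of the 4 markers of this list that were higher with CHF, and the other 8 were lower. Heart muscle was present in very unequal amounts: the mean over 18 cardiomyocyte markers ran from 1.25 to 9.82 in 10y-noCHF and from 1.92 to 10.7 in 10y-MMVD-CHF. As the valves were sequenced in bulk, fewer cells of a type and less RNA per cell cannot be told apart. The female 10y-MMVD-CHF dog CAV1047 had the highest cardiomyocyte level and the male 10y-MMVD-CHF dog CAV614 had the highest red blood cell level, and results were also computed without these 2 dogs.

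Positions are given for the canFam4 (UU_Cfam_GSD_1.0) assembly. PDGFA lies on chromosome 6 from 16420378 to 16438910, PDGFB on chromosome 10 from 26760558 to 26778890 and PDGFRB on chromosome 4 from 59841270 to 59877207, all on the plus strand. These 3 genes were counted over canine RefSeq exons of 1117, 763 and 3828 bases. PDGFC lies on the minus strand of chromosome 15 from 54528725 to 54726824. PDGFD on chromosome 5 (28005540 to 28233502), PDGFRA on chromosome 13 (47418193 to 47464247) and PDGFRL on chromosome 16 (41776857 to 41842200) are on the plus strand. These 4 genes were counted over the span of an aligned human gene with the introns included, which was 199162 bases for PDGFC, 227439 for PDGFD, 42305 for PDGFRA and 65202 for PDGFRL. Reads from unspliced RNA therefore count towards these 4 genes, and their levels can be compared between dogs but not with those of other genes.

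For the 3 genes with an exon feature, the share of the reads over the whole gene that touched an exon had a median of 42.8% for PDGFA (36.4% to 50.3%), 23.8% for PDGFB (17.7% to 30.1%) and 73.3% for PDGFRB (63.7% to 77.6%). The rest lay in introns or in parts of the gene beyond the canine exons. All of PDGFB also lies inside the feature of MGAT3 on the other strand, and the small gene DDI1 lies inside PDGFD with 65 counts over all dogs. Reads were counted without regard to strand, so for these stretches the overlapping genes could not be separated.

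All 7 genes were detected in every dog, with 184 counts for PDGFB in the lowest dog and 16427 for PDGFRA in the highest. Per kilobase of exon, PDGFRB was the highest of the 3 genes that could be compared, with 38.98 ± 7.79 CPM per kilobase (SD, n = 34). PDGFA followed with 8.95 ± 1.597 and PDGFB with 6.92 ± 2.15. PDGFRB exceeded both ligands in all 34 dogs, and its ratio to PDGFA had a median of 4.48 (2.41 to 7.16). PDGFA exceeded PDGFB in 26 of 34 dogs with a median ratio of 1.34 (0.771 to 2.46), so the order of the ligands was not the same in every valve.

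The spread between dogs differed from gene to gene. PDGFC was the most even, with a coefficient of variation of 16.4% over 34 dogs, followed by PDGFA with 17.9%, PDGFRB with 19.99%, PDGFRA with 20.6% and PDGFD with 23.2%. PDGFB (31.05%) and PDGFRL (35.1%) varied most, and the highest dog had 5.49 times the PDGFRL level of the lowest.

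**Figure D1:**
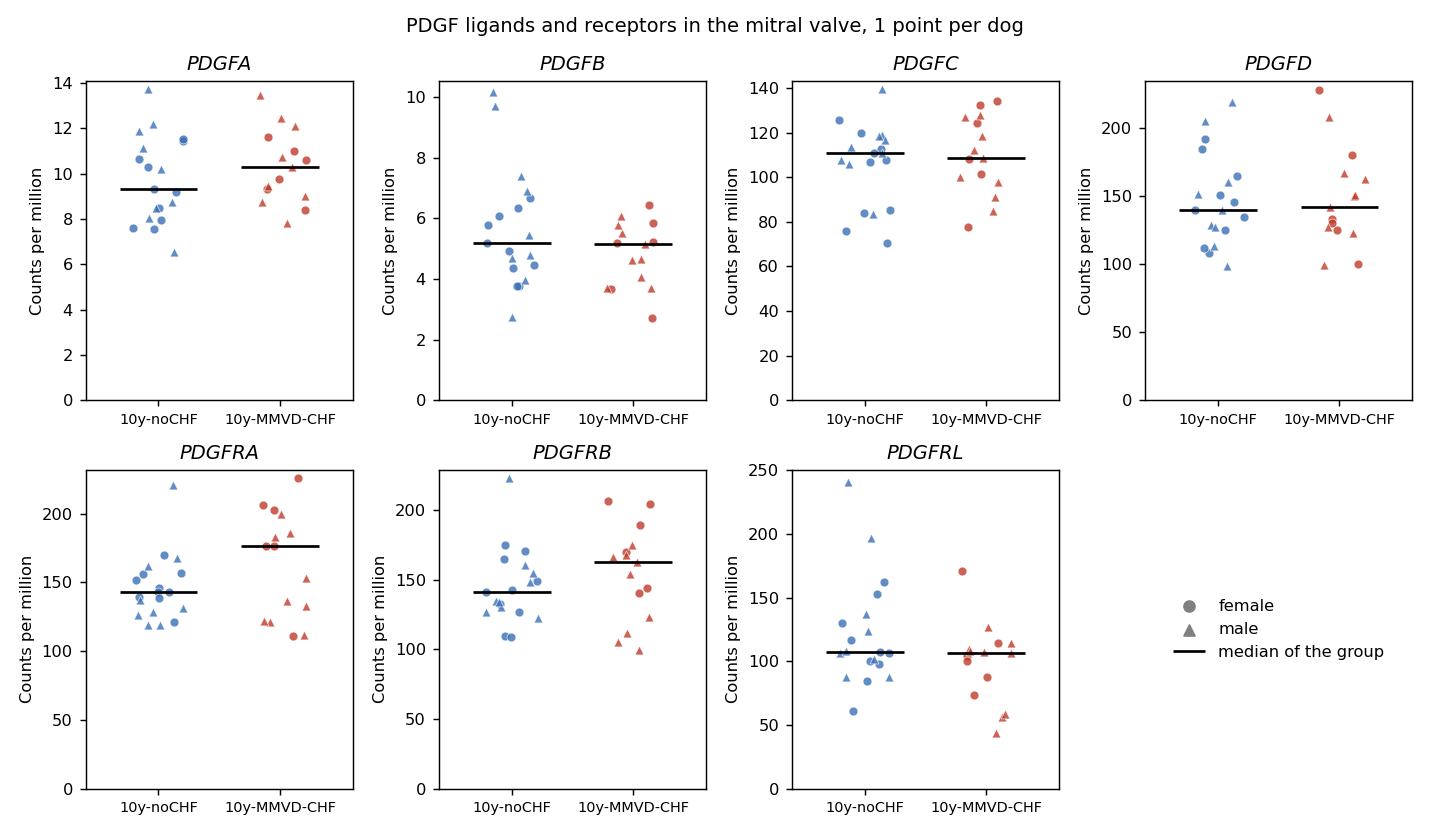
CPM levels (TMM-scaled, linear axes from 0) of the 7 PDGF genes in each of the 34 dogs, with 10y-noCHF (n = 19) in blue and 10y-MMVD-CHF (n = 15) in red, females as circles, males as triangles and the median of each group as a black line. The groups overlap in every panel, and the widest scatter is that of PDGFRL, from 43.8 to 240.4 CPM.

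The main comparison asked whether the PDGF genes differed between valves from dogs with and without CHF. Of the 7, 0 passed a false discovery rate (FDR) of 0.1 in edgeR's quasi-likelihood test with sex as a fixed effect, where 23 of 19568 features tested (0.118%) passed, 0.0256% of all features being higher and 0.092% lower in CHF. None had an unadjusted p below 0.05, a limit that 6.31% of all features passed, and the FDR of the 7 genes was between 0.812 and 0.998. DESeq2 gave 64 features (0.327%) and again none of the 7, none of them with an unadjusted p below 0.05. The 95% interval of the fold change lay within 1.5-fold in either direction for 6 of the 7 genes, PDGFRL being the exception, and within 2-fold for all 7.

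Among the ligands, PDGFA, which acts through PDGFRA, had 6.55, 9.30 and 13.7 CPM in the lowest, the median and the highest 10y-noCHF dog. The 10y-MMVD-CHF dogs had 7.84, 10.3 and 13.5 CPM. Of the 15 dogs with CHF, 11 lay above the median of those without it, but none lay above the highest. The log2 fold change was 0.07 ± 0.091 (SE; edgeR p = 0.43, FDR = 0.948).

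PDGFB, which binds both receptors and is known as the endothelial ligand that recruits pericytes, had 2.73, 5.18 and 10.2 CPM without CHF. With CHF the values were 2.71, 5.15 and 6.43 CPM. The medians were alike, and 5 of the 19 dogs without CHF, 4 of them males, exceeded every dog with CHF. A difference at the top alone was not tested. The log2 fold change was -0.24 ± 0.144 with a 95% interval from -0.52 to 0.05 (edgeR p = 0.111, FDR = 0.848).

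PDGFC, a latent ligand of PDGFRA, had 70.6, 110.7 and 139.6 CPM without CHF and 77.8, 108.7 and 134.3 CPM with it. PDGFD, the latent ligand of PDGFRB, had 98.4, 139.8 and 219.0 CPM without CHF and 99.2, 141.5 and 227.7 CPM with it. The ranges of both genes overlapped nearly from end to end, and the log2 fold changes of 0.04 ± 0.082 for PDGFC (edgeR FDR = 0.966) and 0.01 ± 0.114 for PDGFD (edgeR FDR = 0.998) were smaller than their errors.

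For the receptor PDGFRA, which binds the A, B and C chains, the lowest, median and highest values were 118.7, 142.9 and 220.7 CPM in 10y-noCHF. In 10y-MMVD-CHF they were 111.1, 176 and 226.2 CPM. The dogs with CHF lay at both ends: 1 of 15 was above and 2 were below all dogs without CHF, and 9 were above their median. The log2 fold change was 0.16 ± 0.093 with a 95% interval from -0.02 to 0.35 (edgeR p = 0.0902, FDR = 0.836). It was 0.22 (unadjusted p = 0.0138, FDR = 0.493) without the male 10y-noCHF dog CAV1939, and limma voom with sample weights gave an unadjusted p of 0.0135 (FDR = 0.381). The lowest log2 fold change with 1 dog left out was 0.125, without the female 10y-MMVD-CHF dog CAV1872.

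PDGFRB, the receptor of the B and D chains, had 109.0, 141 and 222.6 CPM without CHF and 99.7, 163 and 206.2 CPM with it. Of the 15 dogs with CHF, 10 lay above the median of the others and 2 below their lowest. The log2 fold change was 0.10 ± 0.096 (edgeR p = 0.327, FDR = 0.930).

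PDGFRL, which resembles the extracellular part of a PDGF receptor and has no kinase domain, had 60.8, 107 and 240.4 CPM without CHF. With CHF it had 43.8, 107 and 171.0 CPM. The medians were alike, while 3 dogs with CHF lay below and 2 dogs without CHF lay above all dogs of the other group. The log2 fold change was -0.30 ± 0.162 with a 95% interval from -0.62 to 0.01 (edgeR p = 0.0693, FDR = 0.812).

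**Figure D2:**
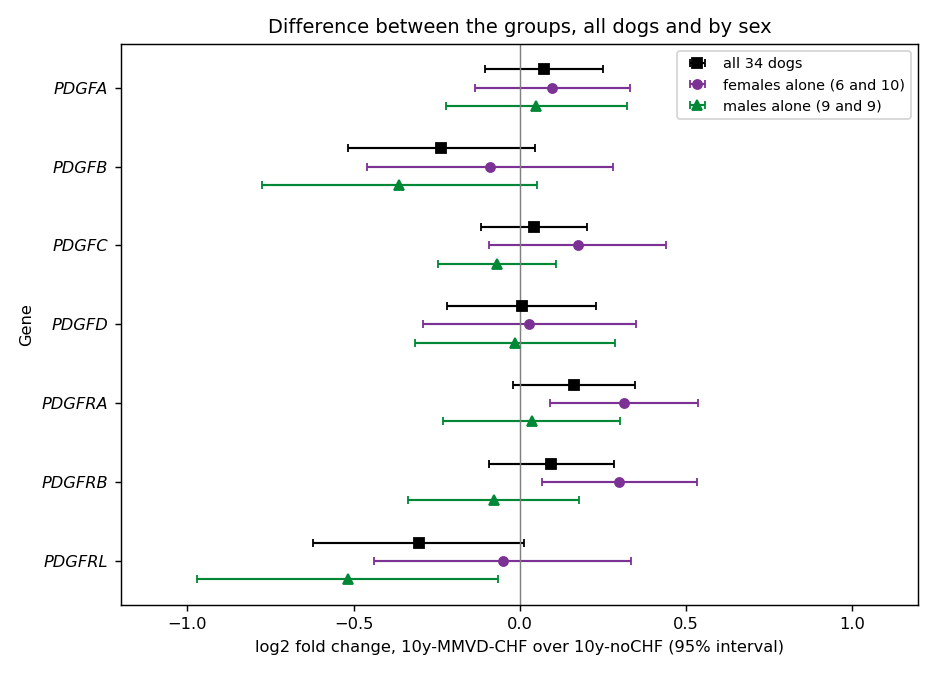
Log2 fold change of the 7 PDGF genes between 10y-MMVD-CHF and 10y-noCHF (edgeR, x axis), with bars for the 95% interval, for all 34 dogs in black, females alone in purple and males alone in green. The intervals over all dogs include 0 for every gene, and those of PDGFRA and PDGFRB lie above 0 in females.

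The levels were also compared between the sexes. In the same edgeR fit, 0 of the 7 differed between females and males at an FDR of 0.1, where 28 of 19568 features (0.143%) did, and none had an unadjusted p below 0.05. DESeq2 called 37 features (0.189%) and none of the 7. The largest difference, female over male, was that of PDGFB, with a log2 value of -0.15 (SE 0.143, edgeR FDR = 0.9997). PDGFB was 5.03 ± 1.16 CPM in 16 females and 5.50 ± 1.98 in 18 males (SD).

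The groups were then compared within each sex. PDGFRA was between 121.1 and 169.8 CPM in the 10 females without CHF, with a median of 144.6. In the 6 females with CHF it was between 111.1 and 226.2 CPM with a median of 189.8. Of these 6, 5 were above all 10 females without CHF and 1, CAV1047, was below all of them. For PDGFRB, the range was 109.0 to 174.5 CPM with a median of 141.9 in females without CHF and 140.2 to 206.2 CPM with a median of 179.7 in females with CHF, 3 of which were above all others. In a fit of the females alone, the log2 fold change was 0.31 ± 0.114 for PDGFRA (edgeR p = 0.0136, FDR = 0.321) and 0.30 ± 0.119 for PDGFRB (edgeR p = 0.0217, FDR = 0.367). Neither passed the FDR, no feature did, and 10.7% of the features had an unadjusted p below 0.05 in this fit.

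In males, PDGFRL had the lowest p of the 7 genes. It was between 87.9 and 240.4 CPM in the 9 males without CHF, with a median of 107.9, and between 43.8 and 126.7 CPM in the 9 males with CHF, with a median of 107.6. The medians were alike, and 3 males of each group lay outside the range of the other. In a fit of the males alone the log2 fold change of PDGFRL was -0.52 ± 0.231 (edgeR p = 0.0369, FDR = 0.99996), where 0 features passed the FDR and 3.54% had an unadjusted p below 0.05. PDGFRA and PDGFRB had log2 fold changes of 0.04 ± 0.135 and -0.08 ± 0.132 in males.

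The difference between the sexes was tested as an interaction. PDGFRB had the lowest p of the 7, with a CHF effect in males that was 0.38 ± 0.185 log2 units below that in females (edgeR p = 0.0493, FDR = 0.829). No feature passed the FDR in this test by edgeR, 3 (0.0153%) did by DESeq2, and 6.02% of all features had an unadjusted p below 0.05. With the cardiomyocyte level as a covariate, none of the 7 had an unadjusted p below 0.05. The other 6 genes had interaction p values of 0.143 or more. The sexes were thus not shown to differ in the CHF effect on any PDGF gene.

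While no gene passed the test between the groups, several of the genes varied together from dog to dog. Correlations were computed over the 34 dogs on log2(CPM + 1) after the means of the 4 groups of CHF status and sex were removed, with permutation p-values from 100000 resamples, two-sided, adjusted (Benjamini-Hochberg) over the 21 pairs of genes. Of the 21 pairs, 6 passed an adjusted p of 0.1 by both Pearson's r and Spearman's rho. All 6 were positive, and each involved a receptor or PDGFRL, as most of the 21 pairs do. The share of pairs among all features that would pass was not computed, so these counts cannot be called particular to the PDGF genes.

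PDGFRB and PDGFRL had the closest relation, with r = 0.67 (permutation p = 0.00013, adjusted 0.00136) and rho = 0.71 (permutation p = 3e-05, adjusted 0.00063). After the 2 dogs farthest from the median in PDGFRB were left out r was 0.62, and r was 0.69 within 10y-noCHF and 0.66 within 10y-MMVD-CHF. For each pair of genes, the 2 dogs left out were those farthest from the median in the gene named first. The relation of PDGFRA to PDGFRB was nearly as close, with r = 0.66 (permutation p = 0.00011, adjusted 0.00136) and rho = 0.63 (permutation p = 0.00036, adjusted 0.00378). It had an r of 0.57 without the 2 farthest dogs. PDGFRA and PDGFRL had r = 0.49 and rho = 0.53 (permutation p = 0.00767 and 0.00364, adjusted 0.0322 and 0.0191), with r = 0.45 without 2 dogs. With the cardiomyocyte marker mean removed as well, 3 of the 6 pairs passed, and PDGFRA with PDGFRL (rho = 0.41, adjusted p = 0.140) was not among them.

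Of the ligands, PDGFD went with its own receptor PDGFRB, with r = 0.54 and rho = 0.52 (permutation p = 0.0015 and 0.00272, adjusted 0.00987 and 0.0190). Its r was 0.43 without the 2 farthest dogs, 0.73 within 10y-noCHF and 0.34 within 10y-MMVD-CHF. PDGFD also went with PDGFRL (rho = 0.42, permutation p = 0.0186, adjusted 0.0651, and r = 0.40, adjusted 0.0849), where r fell to 0.26 without 2 dogs. The pair of PDGFD and PDGFRA passed by r alone (r = 0.42, adjusted 0.0849, and rho = 0.28, adjusted 0.253). PDGFC went with its receptor PDGFRA, with r = 0.51 and rho = 0.42 (permutation p = 0.00188 and 0.0113, adjusted 0.00987 and 0.0474). That relation had an r of 0.36 without 2 dogs, 0.80 within 10y-MMVD-CHF and 0.21 within 10y-noCHF, and whether the groups differed was not tested. All these values are before the cardiomyocyte level was removed, and 3 in place of 6 pairs of PDGF genes passed after its removal. The values given here do not show whether PDGFC and PDGFRA varied together apart from heart muscle. With the cardiomyocyte markers rho was -0.71 for PDGFC (adjusted 0.00112) and -0.37 for PDGFRA (adjusted 0.198). Without CAV614 and CAV1047, the adjusted p of rho was 0.128 for PDGFC with PDGFRA and 0.103 for PDGFD with PDGFRL.

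PDGFA and PDGFB passed the adjusted p with none of the other 5 genes, nor with each other (rho = 0.13, permutation p = 0.481, adjusted 0.577). PDGFA and PDGFB are 2 of the 3 genes counted over exons and had the lowest counts, with medians of 592 and 303 per dog, while the other genes had medians of 6494 or more. The part of the counting in this was not tested.

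**Figure D3:**
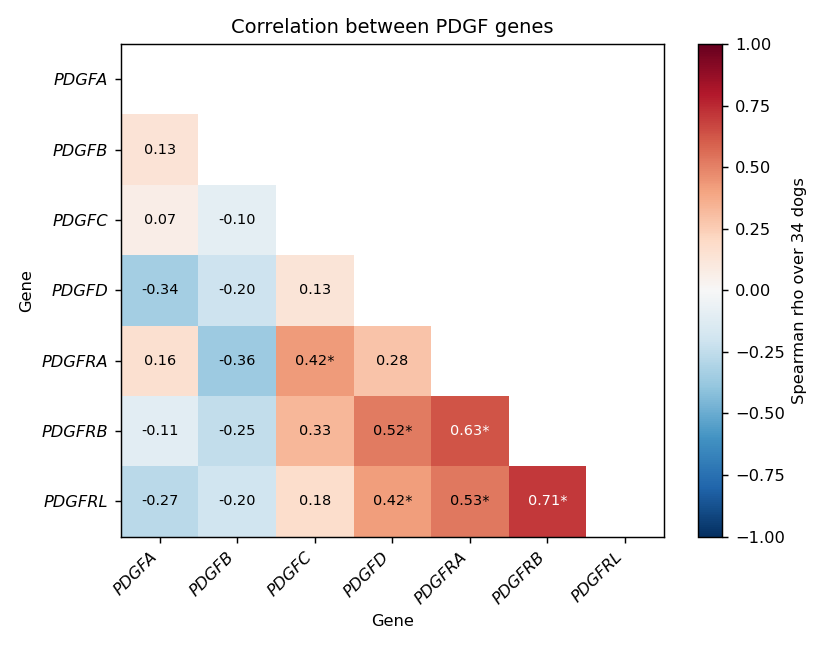
Spearman's rho between the 7 PDGF genes over 34 dogs after the means of the 4 groups of CHF status and sex were removed, with red for positive and blue for negative values and an asterisk where the adjusted permutation p is below 0.1. The 6 marked pairs lie among PDGFC, PDGFD, PDGFRA, PDGFRB and PDGFRL, with the highest value, 0.71, for PDGFRB and PDGFRL.

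The same test was run between each gene and the mean log2(CPM + 1) of 8 lists of cell type markers, which gave 56 pairs adjusted together. Of these, 10 passed an adjusted p of 0.1 by rho and 9 of them also by r. The share of all features that would pass this test with the same lists was not computed. The markers of valve interstitial cells and fibroblasts (12 genes, among them the collagens COL1A1 and COL3A1, decorin and periostin) went with 4 PDGF genes. For PDGFC r was 0.73, with a permutation p of 1e-05, the smallest that the resamples can give (adjusted 0.00056), and rho was 0.67 (adjusted 0.00261). For PDGFRB, r and rho were both 0.65 (adjusted 0.00098 and 0.00261). PDGFRA had r = 0.63 and rho = 0.60 (adjusted 0.00098 and 0.00406), and PDGFRL had r and rho of 0.56 and 0.55 (adjusted 0.00686 and 0.00992). Without the 2 farthest dogs r was 0.64 for PDGFC, 0.65 for PDGFRB, 0.54 for PDGFRA and 0.58 for PDGFRL. For the marker lists, the 2 dogs left out were those farthest from the median in the marker mean. PDGFD had a rho of 0.37 with these markers and did not pass.

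PDGFC passed with 4 of the 8 lists, more than any other of the 7 genes. Its level fell as the cardiomyocyte markers rose, with r = -0.66 and rho = -0.71 (permutation p = 4e-05 and 2e-05, adjusted 0.00098 and 0.00112), an r of -0.65 without 2 dogs, -0.68 within 10y-noCHF and -0.64 within 10y-MMVD-CHF. It was higher where the macrophage markers were higher (r = 0.64, rho = 0.52, adjusted 0.00302 and 0.0183), a relation with an r of 0.52 without the 2 farthest dogs. Within 10y-noCHF its r was 0.79 and its rho 0.72, whereas within 10y-MMVD-CHF r was 0.40 and rho 0.075, and whether the groups differed was not tested. PDGFC was lower where the pericyte markers were higher (r = -0.59, rho = -0.59, adjusted 0.00686 and 0.00765). After the cardiomyocyte level was removed as well, rho was -0.10 (adjusted 0.833) for the pericyte list. For the interstitial cell and macrophage lists it was then 0.55 and 0.54 (both adjusted 0.0185).

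PDGFRL was lower where the endothelial markers (11 genes, among them PECAM1 and CDH5) were higher, with r = -0.61 and rho = -0.60 (permutation p = 0.00045 and 0.00051, adjusted 0.0042 and 0.00571). It had an r of -0.53 without CAV494 and CAV648, the 2 dogs farthest in the endothelial level. The male 10y-noCHF dog CAV444 had the highest PDGFRL level and the lowest endothelial level of the 34, and the male 10y-MMVD-CHF dog CAV648 had the lowest PDGFRL level and the highest endothelial level. An r without both CAV444 and CAV648 was not computed.

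PDGFRB, itself used as a pericyte marker and left out of the pericyte list, had a rho of -0.01 with the other pericyte markers. The cardiomyocyte level, with which PDGFRB had a rho of -0.30 (adjusted 0.297), was not removed from this value. The value therefore cannot show whether PDGFRB varied with the pericyte markers apart from heart muscle. With the smooth muscle markers PDGFRB had a rho of 0.41 (permutation p = 0.0173, adjusted 0.0968). There r = 0.41 did not pass (adjusted 0.106) and was 0.67 within 10y-noCHF and 0.06 within 10y-MMVD-CHF. PDGFA had its single relation with the platelet and megakaryocyte list (rho = 0.47, permutation p = 0.0061, adjusted 0.0380, and r = 0.48, adjusted 0.0631). All 5 platelet genes tested were low, with a mean below 4 CPM in both groups for each of them, and GP6, the platelet collagen receptor, had 161 counts over all dogs. PDGFB, a ligand that platelets store, had a rho of 0.13 with this list and of 0.22 with the endothelial markers, and neither passed.

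**Figure D4:**
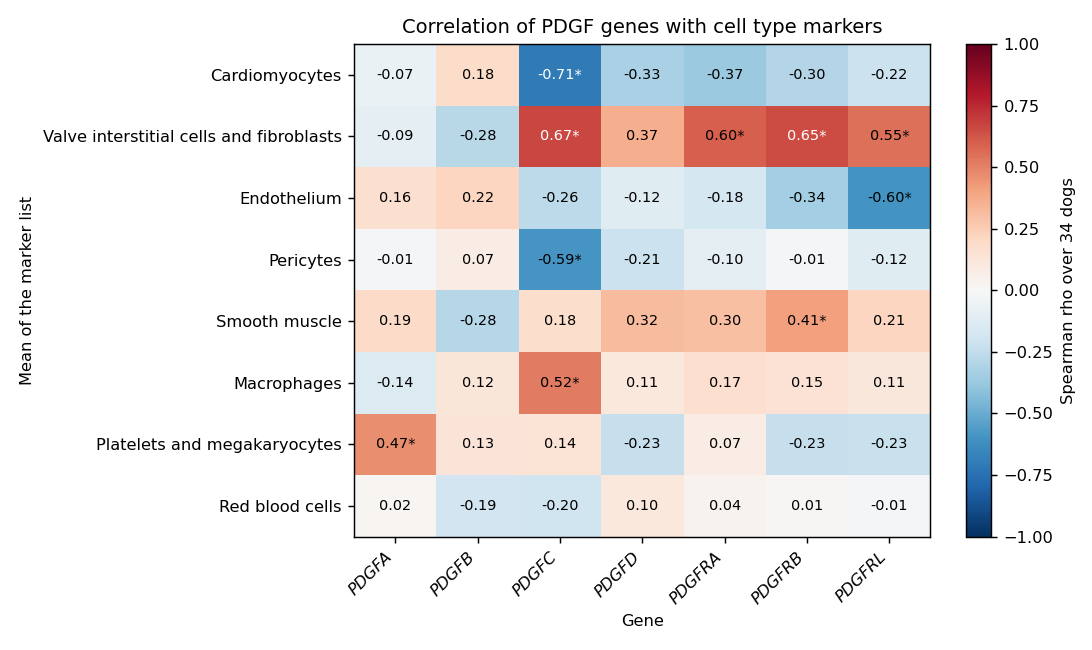
Spearman's rho of each PDGF gene (columns) with the mean of each list of cell type markers (rows) over 34 dogs after the means of the 4 groups were removed, with an asterisk where the adjusted permutation p is below 0.1. Of the 56 cells, 10 are marked, 4 of them in the row of the valve interstitial cell and fibroblast markers.

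**Figure D5:**
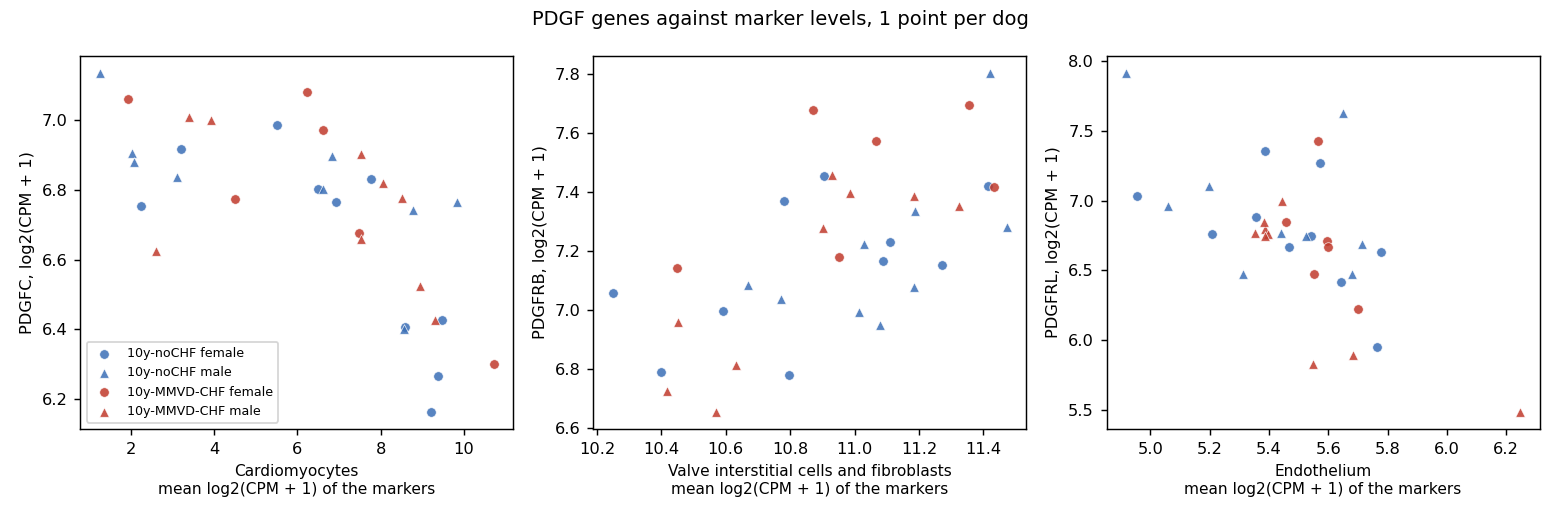
PDGFC against the cardiomyocyte markers (left), PDGFRB against the valve interstitial cell and fibroblast markers (middle) and PDGFRL against the endothelial markers (right), all on the log2(CPM + 1) scale, 1 point per dog, by group (blue 10y-noCHF, red 10y-MMVD-CHF) and sex (circles females, triangles males). The values are shown before the group means were removed and rho after their removal was -0.71, 0.65 and -0.60.

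The cardiomyocyte level was also tested as a term beside CHF status and sex in edgeR, an analysis chosen after seeing these relations. Per log2 unit of the marker mean, PDGFC changed by -0.06 ± 0.011 (SE, FDR = 0.000173), PDGFRA by -0.04 ± 0.016 (FDR = 0.0435) and PDGFD by -0.04 ± 0.019 (FDR = 0.0887). These were 3 of the 7 genes, all lower with more muscle, where 38.6% of all features passed in either direction and 19.1% passed as lower. With this term in the fit, the CHF effect passed an FDR of 0.1 for 0 of the 7 genes and for 0.153% of the features.

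For each gene, the features most like it over the 34 dogs were listed by Spearman's rho on the same values, among 16168 features with a mean of at least 1 CPM, as a description. PDGFC was followed most closely by PAPSS1 (rho = 0.90), which makes the sulfate donor used for proteoglycans, by the fucosyltransferase gene FUT8 (0.88) and by the kinase gene PAK1 (0.87). PDGFRL was closest to DCN, which encodes the proteoglycan decorin (0.84), SETBP1 (0.81) and the matrix gene THBS2 (0.78). PDGFRB was close to SREBF1 (0.83), a regulator of lipid synthesis, and ZHX3 (0.81). PDGFRA was closest to FBLN7 (0.79), ARSB (0.78), CYP1B1 (0.78) and the collagen receptor DDR2 (0.77).

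PDGFD was closest to SFRP1, a secreted WNT antagonist (0.76), and CPED1 (0.72). The closest features were less alike for PDGFB, with PRKCH at 0.72 and DDX59 at 0.65, and least alike for PDGFA, with ASTN1 at 0.58 and RSPRY1 at 0.57. After the cardiomyocyte level was removed, the 5 closest features shared 3 gene symbols with the first list for PDGFB and PDGFC, 2 for PDGFD, and 1 for each of the other genes, among them DCN for PDGFRL and SREBF1 for PDGFRB.

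Of 86 genes around the pathway in 6 lists, 85 were tested for the CHF effect, and 1 passed the FDR, beside 0.118% of all features. An unadjusted p below 0.05 was found for 15 of the 85, beside 6.31% of all features, and 5 of the 15 were immediate-early genes. The lists were chosen with earlier results of these data known, and 2 of their genes, FOSB and ATF3, are in the study's own gene list. These shares are therefore no test of the pathway. Among the 12 genes that process or bind the ligands, 0 passed. ST14, the protease matriptase that can open PDGFD, was 1.94 ± 1.03 CPM with CHF and 1.29 ± 0.463 without it (SD; log2 fold change 0.61 ± 0.205, edgeR p = 0.00524, FDR = 0.480). PCSK6, a convertase of the furin type, was 66.6 ± 20.9 and 85.7 ± 23.1 CPM (log2 fold change -0.37 ± 0.143, edgeR p = 0.0137, FDR = 0.626), and FURIN itself had a log2 fold change of 0.12 ± 0.075. The median of the list was 0.06, beside 0.01 over all features.

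Among 27 receptor adaptors and kinases tested, 0 passed, 23 were higher and 4 lower in CHF, and the median log2 fold change was 0.07. The lowest p values were those of PTPN11, a phosphatase recruited by the receptors (log2 fold change 0.16 ± 0.067), the adaptor GRB2 (0.13 ± 0.056) and the PI3-kinase gene PIK3CA (0.14 ± 0.065), with edgeR FDRs between 0.733 and 0.762. None of the 15 genes that attenuate the receptors passed. PTPRJ, a receptor-type phosphatase, had a log2 fold change of 0.31 ± 0.128, DUSP4 one of -0.26 ± 0.115 and SPRED1 one of 0.13 ± 0.059 (edgeR FDR between 0.696 and 0.778). The median of the 15 was 0.11.

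The 16 immediate-early genes that growth factors induce held the 1 gene that passed. FOSB, a subunit of the AP-1 transcription factor, fell from 4.35 ± 2.73 to 1.49 ± 0.630 CPM (SD; log2 fold change -1.52 ± 0.294, edgeR FDR = 0.0289). ATF3 had 18.3 ± 8.63 CPM without CHF and 10.4 ± 3.74 with it (log2 fold change -0.81 ± 0.189, edgeR FDR = 0.124, DESeq2 FDR = 0.0128), and FOSL1 had a log2 fold change of -0.63 ± 0.185 (edgeR FDR = 0.387). FOSB and ATF3 are in the gene list that the study drew from these same samples. In this list 11 genes were lower and 5 higher in CHF, with a median of -0.15, and an unadjusted p below 0.05 was found for 5 of the 16, all lower in CHF, beside 6.31% of all features in either direction. FOS itself had a log2 fold change of -0.06 ± 0.265 and EGR1 one of -0.16 ± 0.193.

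No gene of the related growth factor families passed. Of the 7 class III receptor genes and their ligands, relatives of the PDGF receptors, 0 passed, with FLT3 at a log2 fold change of 0.47 ± 0.201, CSF1R at 0.20 ± 0.130 and CSF1 at -0.09 ± 0.076. Of the 8 VEGF ligands and receptors 0 passed, with PGF at -0.32 ± 0.178, KDR at -0.32 ± 0.214 and FLT4 at -0.14 ± 0.113. Their edgeR FDRs were all above 0.7, and the medians of these lists were 0.01 and -0.09.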

How the data were processed

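Poly-A RNA of 34 mitral valves was sequenced as paired reads of 150 bases. The authors aligned reads to canFam4 with STAR and made the deposited counts with featureCounts 2.0.3 over 23768 features (2165 canine RefSeq, 21603 aligned human genes). Per the file headers, both reads of a pair were counted, a read was counted on every feature it overlapped, and strand was ignored, so a fragment could give 2 counts. The deposited feature length was used for counts per kilobase, which were compared only among the 3 genes with exon features, although all 7 had been planned. 1 of the 35 count columns belongs to no labelled sample and was not used.

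Features were tested if their counts over the 34 dogs summed to 100 or more, with edgeR 4.0.16 (TMM, quasi-likelihood, CHF status and sex; R 4.3.3), adjusted by Benjamini-Hochberg over all features, at an FDR threshold of 0.1. DESeq2 1.42.0 and limma 3.58.1 were alternatives. Intervals are 1.96 SE on either side. CPM used TMM library sizes. Correlations used numpy 2.4.6 and a pseudocount of 1 CPM. The scripts were tested on simulated data. Groups came from the sample titles, and p-values rest on separate dogs. Gene names of all 7 genes matched the RefSeq gene table, which gave their positions. Sequences were not analysed here.

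The PDGF genes, pathway lists and marker lists were chosen with earlier results of these data known. Named pathway genes are those past the FDR and the 3 with the smallest p in each list, and closest features are the 5 with the highest rho. POSTN, FOS, EGR1 and GP6, and single dogs named, were chosen after their values were seen. CRK, PF4 and HBA are not named in the feature list. 1 of the closest features is not reported here.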

Additional observations from a re-analysis of the deposited data

Results flagged for a closer look

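In 28 sets of dogs (the 7 PDGF genes in each of the 4 groups of CHF status and sex), the gap of the highest or lowest dog to the next was set against the range of the group, and chance alone would mark about 1.4 of them. It marked 2, both for the male 10y-noCHF dog CAV1939. This dog stood above the other 8 males of its group in PDGFRA, with a gap of 0.518 of the range, and in PDGFRB, with a gap of 0.620 of the range. It had 220.7 CPM of PDGFRA and 222.6 CPM of PDGFRB, ranked 1 of 34 in PDGFRB and 2 of 34 in PDGFRA, PDGFD and PDGFRL, and ranked 3 of 34 in the valve interstitial cell and fibroblast markers and 31 of 34 in the cardiomyocyte markers. Its total count ranked 18 of 34. The part of these levels in its PDGF values was not tested.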

How the results depend on the processing

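The count of PDGF genes past an FDR of 0.1 for the CHF effect, the sex effect and the interaction was 0 under every alternative computed for each (DESeq2, size factors of DESeq2, another low-count filter, a cardiomyocyte covariate and leaving out CAV614 and CAV1047 for all 3, and for the CHF effect also limma voom, robust dispersion, upper-quartile scaling, no filter, no sex term, halved counts, an FDR of 0.05, each sex alone and each dog left out). Leaving out 1 dog moved the features called over the whole table from 23 to between 8 (without CAV1519 or CAV2102) and 28 (without CAV743). The direction of the CHF effect turned for PDGFD, which was near 0, under voom (-0.0182) and upper-quartile scaling (-0.00649), and when 1 dog was left out it ranged from -0.0644 to 0.0534. In males alone it turned for PDGFC (-0.0683), PDGFD (-0.0139) and PDGFRB (-0.0785). The sex difference turned for PDGFD with the cardiomyocyte covariate (0.0130) and without CAV614 and CAV1047 (0.0166), and for PDGFRL with the covariate (0.00155), and the interaction turned for PDGFD with the covariate (0.0458). PDGFRL had an unadjusted p of 0.0177 (FDR = 0.639, edgeR) without CAV1876 and PDGFRA one of 0.0117 (FDR = 0.521, edgeR) without CAV614 and CAV1047. With the cardiomyocyte level removed, 3 in place of 6 pairs of PDGF genes passed, and rho of PDGFRA with PDGFRL was 0.41 (adjusted p = 0.140). 1 pathway gene passed by edgeR, and 2 (FOSB and ATF3) did by DESeq2 and with the cardiomyocyte covariate. The causes were not tested. No paired analysis was possible because the groups share no replicate number. PDGFB had the lowest counts of the 7 genes, 184 to 791 per dog.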
